A study of Drosophila melanogaster with 12 samples.

Results

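The transcripts of Stip1 and DnaJ-1, a pair of co-chaperones of the Hsp70 and Hsp90 chaperones, were followed in *Drosophila* heads through a temperature cycle and the day of constant warmth after it. They were taken forward because earlier results of the same arrays had shown them higher in the warm phase of the cycle, and the probe sets of Stip1 (also called Hop) and DnaJ-1 (also called Hsp40) were chosen by name. They are 2 of 10843 genes that have a probe set of a single symbol on the Affymetrix Drosophila Genome 1 array. Each has 1 such probe set, and both passed the filter on low values. The phase difference of the temperature cycle is therefore given as a description with no test, as is every comparison that uses the same arrays, and tests are kept for the day of constant temperature.

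Hsp70 and Hsp90 are ATP-driven chaperones that bind other proteins as these fold or unfold, and helper proteins called co-chaperones set which clients they take and how fast they work. J-domain proteins such as DnaJ-1 bring clients to Hsp70 and speed its ATP hydrolysis. Stip1 holds Hsp70 and Hsp90 together so that a client can pass between them. In flies, heat shock factor (Hsf) raises the transcription of many chaperone genes when cells are heated well above the rearing range, and the temperatures here are both within that range.

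The flies were *y w*, a strain marked with body and eye colour mutations and otherwise used as wild type, and all of them were kept in darkness. They grew at 25 °C until the early pupal stage. They then lived in a cycle of 12 h at 18 °C (the cryophase) and 12 h at 25 °C (the thermophase), called CA for cold/ambient. After emerging as adults they stayed in this cycle for 4 more days, and were finally held at 25 °C, called AA for ambient/ambient. All heads came from adult flies. Heads of many flies were pooled for each of 12 arrays, 1 array every 4 h, with hours counted from the start of the cryophase. Arrays fall into 4 groups of 3: CA thermophase (hours 14, 18 and 22, at 25 °C), CA cryophase (hours 2, 6 and 10, at 18 °C), AA subjective thermophase (hours 14, 18 and 22, at 25 °C) and AA subjective cryophase (hours 2, 6 and 10, at 25 °C). The 3 arrays of a group are 3 different hours, and no source states that each hour drew on its own culture of flies, so every error and p-value below measures the spread among hours.

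Values are log2 expression values, in which a difference of 1 is a 2-fold difference. The 12 array medians ranged over 4.35 to 4.39, and the correlation of any array with another over all probe sets was 0.974 to 0.995. Head tissue was checked with the marker genes measured. Those of photoreceptors had a mean level of 9.59 to 9.94 on every array, and the 4 neuron, 3 glia and 3 muscle markers measured all passed the filter on low values. Genes of other tissues were also present, and most differed in mean between the phases. Of 23 gut genes that passed the filter, 22 had a higher mean in the CA thermophase than in the CA cryophase, and 22 had a higher mean in the AA subjective thermophase than in the AA subjective cryophase. All 6 genes of the male reproductive tract that passed had a higher mean in the thermophase on both days. Single arrays did not all follow. The mean deviation of the gut genes from their own means was -0.37 at hour 18 of CA and 0.45 at hour 2. That of the male reproductive tract genes was -0.47 and 0.34. In AA the latter was -0.10 to 0.47 in the subjective thermophase and -0.56 to 0.09 in the subjective cryophase. Head markers also moved. The mean deviation of the glia markers from their own means was -0.26 to -0.06 in the AA subjective thermophase. This range did not overlap the AA subjective cryophase (-0.05 to 0.21) or the CA thermophase (0.00 to 0.18). It did overlap the CA cryophase (-0.17 to 0.19). Hours 14 and 22 of AA were the lowest arrays for the neuron markers (-0.46 and -0.38) and for the muscle markers (-0.35 and -0.31). The part of these shifts in the results below was not tested, except where a covariate is named.

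Stip1 transcript was about 2-fold higher in the warm than in the cold part of the thermocycle. It read 6.17, 6.17 and 6.28 at hours 14, 18 and 22 of the CA thermophase, against 5.37, 4.90 and 5.30 at hours 2, 6 and 10 of the CA cryophase. The groups did not overlap, the 3 warm arrays lay within 0.12 of each other, and the array of hour 6 was the lowest of all 12. The means were 6.21 ± 0.07 in the CA thermophase and 5.19 ± 0.25 in the CA cryophase (SD, n = 3 each), a difference of 1.02 with a standard error of 0.13, or 2.03-fold.

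DnaJ-1 transcript was 1.74-fold higher in the CA thermophase. It read 7.08, 7.17 and 6.88 at hours 14, 18 and 22 of the CA thermophase, against 6.16, 6.14 and 6.43 at hours 2, 6 and 10 of the CA cryophase. Here too every warm array was above every cold one, and the last hour of each phase lay nearest to the other phase. The means were 7.04 ± 0.15 in the CA thermophase and 6.25 ± 0.16 in the CA cryophase (SD, n = 3 each), a difference of 0.80 with a standard error of 0.13. Among all 11137 probe sets that passed the filter, 482 (4.33%) had every CA thermophase array above every CA cryophase array. A limma model over all of them called 1 probe set (0.00898%) at a Benjamini-Hochberg adjusted p of 0.05, that of Stip1, and 431 (3.87%) at an unadjusted p of 0.05. Nothing is read from that call for the pair, since it is the contrast that brought them forward. The call was lost when any 1 of the arrays other than AA2 was left out. In pooled heads, a change in the share of cells that make a transcript and a change in the RNA made per cell cannot be told apart.

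**Figure D1:**
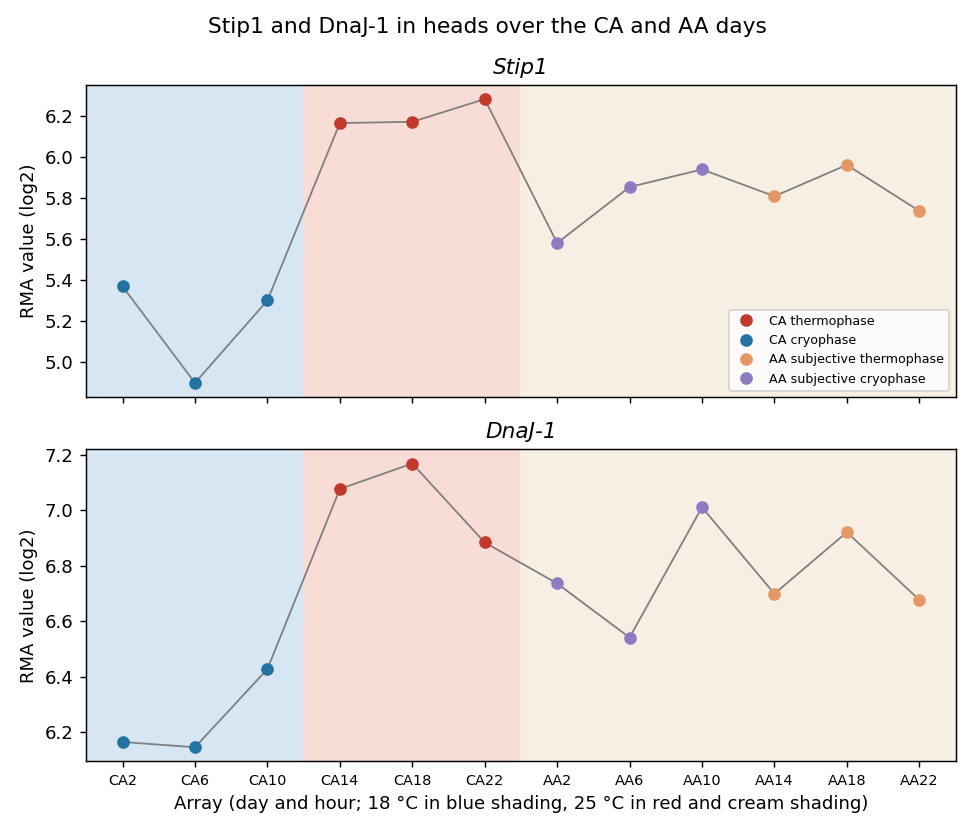
RMA expression values (log2, y axis) of Stip1 and DnaJ-1 on each of the 12 arrays in order of collection (x axis), 1 point per array, coloured by group, with 18 °C shaded blue. The 3 arrays at 18 °C are the lowest of the 12 in both panels, and the 6 AA points of each transcript show no separation by phase.

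Both transcripts took their largest step at the warming. For Stip1 the largest of the 11 differences between successive arrays was at the warming, where hour 14 was 0.87 above hour 10 of the CA day (1.83-fold). Its second largest was at the start of the AA day, where hour 2 of AA was 0.70 below hour 22 of CA (1.63-fold), with both arrays at 25 °C. Those arrays also stood farthest apart in eIF-4a 3′ minus 5′ signal, a measure of RNA integrity that is larger where the 5′ end of a transcript is under-represented, at 0.956 for hour 2 of AA and 3.23 for hour 22 of CA. The mean deviation of the gut genes was -0.34 and 0.93 on the same arrays and that of the male reproductive tract genes -0.36 and 0.92, and their part in the step was not tested. Within the CA cryophase Stip1 was 0.47 lower at hour 6 than at hour 2 and 0.40 higher at hour 10 than at hour 6. Between hours 14 and 18 of the CA thermophase it differed by 0.01. These are differences between single arrays and have no replicate.

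For DnaJ-1 the largest step was the same one, at 0.65 (1.57-fold) between hours 10 and 14 of the CA day. Its next 2 steps by size both fell within the AA day, with hour 10 of AA 0.47 above hour 6, and hour 14 of AA 0.31 below hour 10. Between hour 22 of CA and hour 2 of AA it was 0.15 lower, rank 9 of its 11 steps by size. The drop of Stip1 at the end of the thermocycle was thus not matched by a step of like size in DnaJ-1, and whether the pair differ there was not tested.

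With temperature held at 25 °C, no phase difference of either transcript was detected. Stip1 read 5.81, 5.96 and 5.74 at hours 14, 18 and 22 of the AA subjective thermophase, against 5.58, 5.85 and 5.94 at hours 2, 6 and 10 of the AA subjective cryophase. The groups overlapped, with the AA subjective thermophase array the higher in 5 of the 9 pairs. The means were 5.84 ± 0.11 in the AA subjective thermophase and 5.79 ± 0.19 in the AA subjective cryophase (SD, n = 3 each). The difference was 0.04 with a standard error of 0.13 (95% interval -0.24 to 0.32, or 0.849-fold to 1.25-fold; limma adjusted p = 0.978).

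DnaJ-1 read 6.70, 6.92 and 6.68 at hours 14, 18 and 22 of the AA subjective thermophase, against 6.74, 6.54 and 7.01 at hours 2, 6 and 10 of the AA subjective cryophase. The lowest and the highest AA values both belonged to the subjective cryophase, so its groups overlapped fully, with the AA subjective thermophase array higher in 4 of 9 pairs. The means were 6.77 ± 0.13 in the AA subjective thermophase and 6.76 ± 0.24 in the AA subjective cryophase (SD, n = 3 each). The difference was 0.00 with a standard error of 0.13 (95% interval -0.28 to 0.29, or 0.824-fold to 1.22-fold; limma adjusted p = 0.999). In this comparison limma called 0 of 11137 probe sets (0%) and 600 (5.39%) at an unadjusted p of 0.05. Neither member was among the 600, with unadjusted p of 0.735 for Stip1 and 0.982 for DnaJ-1 in the same limma fit.

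The full spread within AA was correspondingly small. The 6 AA arrays of Stip1 spanned 0.38 (1.30-fold), where its 6 CA arrays spanned 1.39 (2.62-fold). The 6 AA arrays of DnaJ-1 spanned 0.47 (1.39-fold), where its 6 CA arrays spanned 1.02 (2.03-fold). Setting the phase differences of the days against each other, the CA difference exceeded the AA difference by 0.98 with a standard error of 0.18 for Stip1 and by 0.80 with a standard error of 0.18 for DnaJ-1. Over all probe sets limma called 0 (0%) for this difference between days and 355 (3.19%) at an unadjusted p of 0.05. It is given for the pair without a test, because it holds the CA arrays.

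A daily rhythm in constant conditions was also sought with F24, taken here as the share of a day's variance that lies in its 24-h Fourier component. In AA, F24 was 0.515 for Stip1 and 0.234 for DnaJ-1, against a median of 0.328 over all 11137 probe sets. An exact permutation test over the 60 distinct orders of the 6 AA arrays gave a p of 0.383 for Stip1 and 0.667 for DnaJ-1, and both were 1 after adjustment over all probe sets. The smallest p this test can give is 0.0167, and 267 probe sets (2.4%) had one below 0.05. On the CA day, as a description, F24 was 0.927 for Stip1 and 0.979 for DnaJ-1, against a median of 0.401 over all probe sets. The fitted CA component was highest at hour 18.3 for Stip1 and at hour 17.1 for DnaJ-1, near the middle of the thermophase, with a peak-to-trough ratio of 2.73 and 2.25.

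Comparing the same hours on the 2 days separates the cold hours from the warm ones. At hours 2, 6 and 10, when AA flies were at 25 °C and CA flies at 18 °C, Stip1 was 0.60 higher in the AA subjective cryophase than in the CA cryophase (1.52-fold, standard error 0.13). DnaJ-1 was 0.52 higher in the same comparison (1.43-fold, standard error 0.13). For both transcripts every AA array was above every CA array at these hours. That held for 878 of 11137 probe sets (7.88%), and limma called 0 of the 11137, with 711 (6.38%) at an unadjusted p of 0.05. With the hour of day as a block in the model, limma called 15 of the 11137, DnaJ-1 among them and Stip1 not. Nothing is read from that call for the pair, since the CA cryophase arrays are among those that brought them forward. The 3′ minus 5′ signal of the eIF-4a control probe sets was 0.956 to 2.40 in the AA subjective cryophase and 2.44 to 2.74 in the CA cryophase. With it as a covariate the difference was 0.65 for Stip1 and 0.36 for DnaJ-1.

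At hours 14, 18 and 22, when both days were at 25 °C, the transcripts were lower in AA. Stip1 was 0.37 lower in the AA subjective thermophase than in the CA thermophase (1.29-fold, standard error 0.13), and its 3 AA values of 5.74 to 5.96 all lay below its 3 CA values of 6.17 to 6.28. Of all probe sets, 358 (3.21%) had every AA array below every CA array at these hours. DnaJ-1 was 0.28 lower in the AA subjective thermophase (1.21-fold, standard error 0.13, 95% interval -0.56 to 0.00). Its groups overlapped in 1 of 9 pairs, since hour 18 of AA, at 6.92, was above hour 22 of CA, at 6.88. limma called 0 of 11137 probe sets (0%) in this comparison and 336 (3.02%) at an unadjusted p of 0.05. Neuron and glia markers were lower in the same comparison, with 0 of 4 and 0 of 3 above 0, against 54.4% of all probe sets. Muscle markers had 1 of 3 above 0 and a median of -0.40. Photoreceptor markers were split, with 2 of 4 above 0 and a median of -0.07. Their part in the result was not tested.

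**Figure D2:**
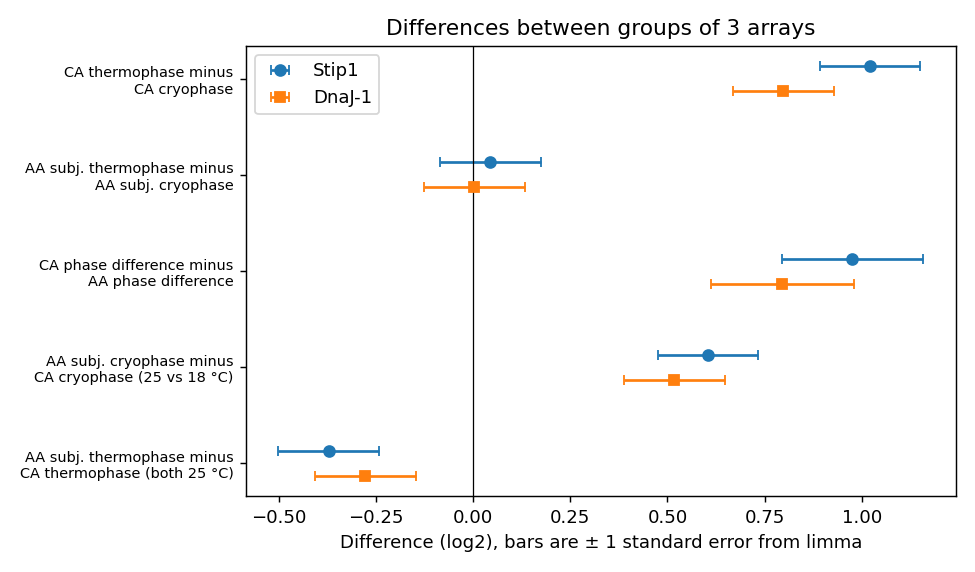
Differences in log2 expression (x axis) for Stip1 and DnaJ-1 in each comparison of groups of 3 arrays (rows), with bars of 1 standard error from limma. The CA phase differences stand at 1.02 and 0.80, the AA phase differences at 0.04 and 0.00, and the last 2 rows show AA above CA at the hours of the cryophase and below it at those of the thermophase.

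The AA level of each transcript therefore stood between its cold and its warm CA level. The mean of the 6 AA arrays lay 61.4% of the way from the CA cryophase mean to the CA thermophase mean for Stip1 and 65.0% of the way for DnaJ-1. All 3 arrays at 18 °C were below all 9 at 25 °C for both members. For Stip1 the 25 °C arrays began at 5.58 and the 18 °C arrays reached at most 5.37. For DnaJ-1 the 25 °C arrays began at 6.54 and the 18 °C arrays reached at most 6.43. In all, 100 of 11137 probe sets (0.898%) had every array at 18 °C below every array at 25 °C.

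The order of the group means was the same for both transcripts, with the CA thermophase highest, the AA subjective thermophase next, the AA subjective cryophase after it and the CA cryophase lowest. The AA groups are neighbours in that order and did not differ beyond their spread. For Stip1 the CA thermophase was also clear of every AA subjective thermophase array, which together with the low 18 °C arrays was seen in 3 probe sets (0.0269%). That combination describes the pattern of Stip1 itself and uses the CA arrays that brought it forward, so nothing is read from how rare it is. The other probe sets with it were CG15812 and hd, named after their values were seen. Their CA phase differences were 0.13 for CG15812 and 0.18 for hd.

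Stip1 and DnaJ-1 shared the split between warm and cold arrays of the thermocycle, for which they were taken forward. Within the phases their order differed in part. Hour 22 was the highest CA thermophase array for Stip1 (6.28) and the lowest for DnaJ-1 (6.88). In the CA cryophase both were lowest at hour 6, and the highest array was hour 2 for Stip1 and hour 10 for DnaJ-1. Over the 12 arrays their values had a Pearson r of 0.887 and a Spearman rho of 0.853, and over the 6 CA arrays an r of 0.928 and a rho of 0.771, both given as descriptions of arrays that share the low 18 °C values. Over the 6 AA arrays r was 0.485 (exact permutation p = 0.331, two-sided) and rho was 0.429 (exact permutation p = 0.419), the only relation tested. Hours 10 and 18 of AA were the highest for both transcripts, and the lowest AA arrays were not the same, hour 2 for Stip1 and hour 6 for DnaJ-1. Without hours 2 and 18, the arrays farthest from the Stip1 median, r was 0.630 and rho was 0.4 over 4 arrays, too few to read.

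**Figure D3:**
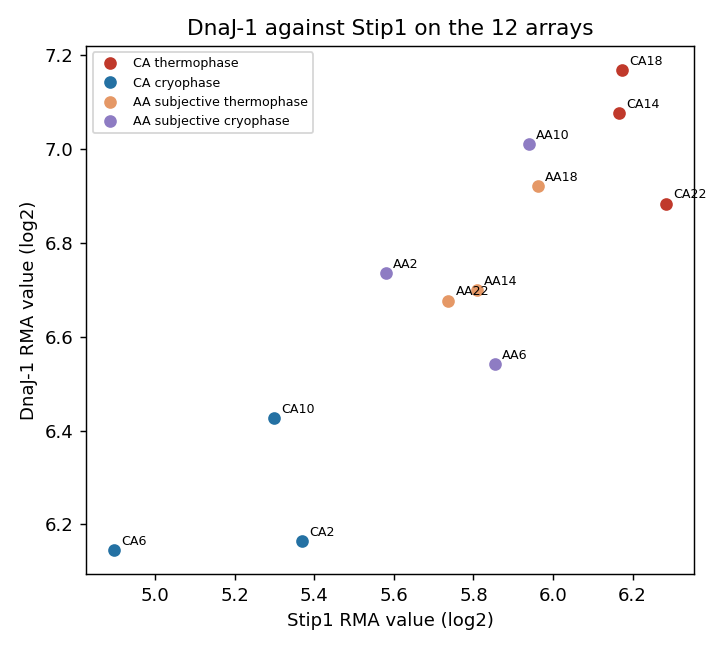
DnaJ-1 (y axis) against Stip1 (x axis), both as log2 expression values, 1 point per array, coloured by group and labelled with day and hour. The 3 CA cryophase arrays stand apart at the lower left and the 3 CA thermophase arrays lie to the right of all others, with the 6 AA arrays between them (r = 0.485 within AA).

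Each member was the probe set most like the other among 9929 others with a single symbol. The rule took the 5 highest Pearson r over the 12 arrays, with all values in use, so these are descriptions. After DnaJ-1, those most like Stip1 were Akap200, which anchors protein kinase A (r = 0.838), CaBP1, a protein disulfide isomerase of the endoplasmic reticulum (0.833), mbf1, a transcriptional coactivator (0.833), and Gp93, the Hsp90 of the endoplasmic reticulum (0.822). After Stip1, those most like DnaJ-1 were Hsc70-3, the Hsp70 of the endoplasmic reticulum (0.870), Tapdelta, a subunit of the translocon-associated complex (0.857), ecd, which acts in ecdysone production and splicing (0.857), and Herc4, a ubiquitin ligase (0.839). The probe set of Hsc70-3 is of a type that can also bind transcripts of related genes, so its values are uncertain. No probe set reached an r of 0.9 with either. By Spearman rho DnaJ-1 had rank 3 for Stip1, and Stip1 had rank 9 for DnaJ-1. By rho 3 of the 5 stayed among the top 5 for Stip1 and 0 for DnaJ-1.

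These neighbours had smaller phase differences than the pair. Akap200 was 0.41 higher in the CA thermophase than in the CA cryophase (standard error 0.11), CaBP1 was 0.47 higher (0.12) and mbf1 was 0.44 higher (0.11). Tapdelta was 0.46 higher (0.14), ecd was 0.22 higher (0.08) and Herc4 was 0.22 higher (0.09). In AA the subjective phase differences of all these neighbours other than the pair ran from -0.10 for Hsc70-3 to 0.23 for CaBP1.

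**Figure D4:**
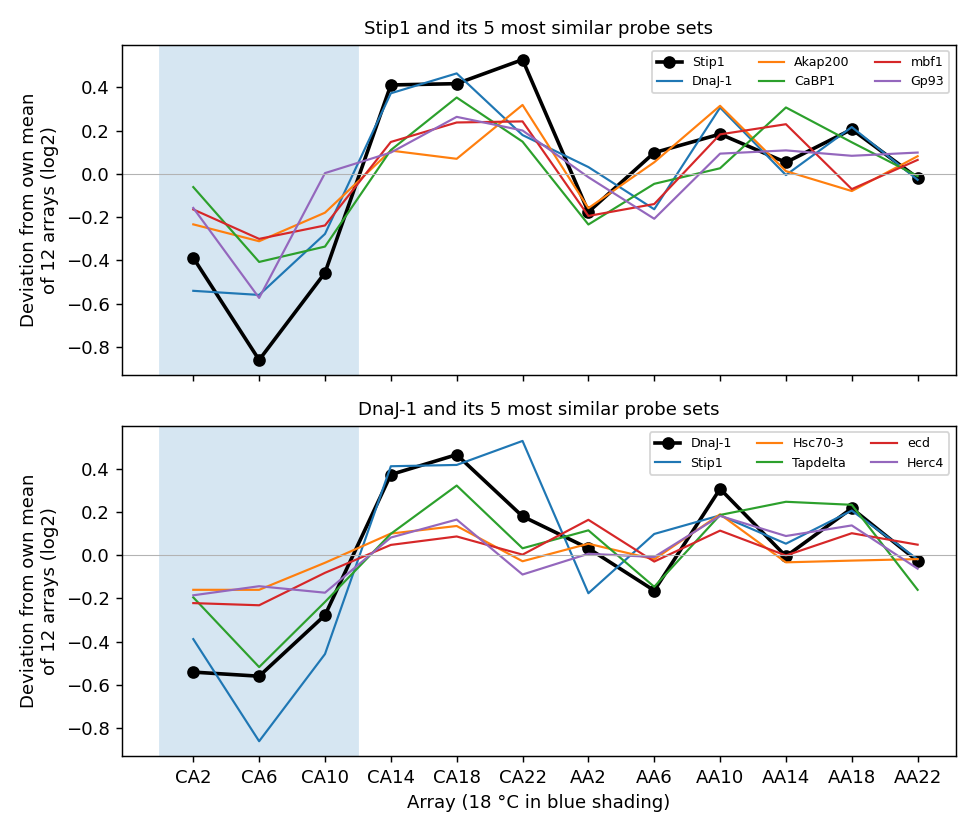
Deviation of each probe set from its own mean over the 12 arrays (log2, y axis) by array (x axis, 18 °C shaded blue), for Stip1 (top) and DnaJ-1 (bottom) in black and the 5 probe sets most like each in colour. Each has its lowest array at 18 °C, though Gp93 at CA10, CaBP1 at CA2 and mbf1 at CA2 lie above their values at AA2. Apart from the other member, the coloured lines span less than the black one.

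Other co-chaperones of Hsp70 and Hsp90 were about evenly split in CA. Of the 20 measured besides the pair, 19 passed the filter, and 10 of these had a higher mean in the CA thermophase than in the CA cryophase, with a median difference of 0.01. Over all probe sets 50.1% were higher and the median was 0.00. None of the 19 passed limma in either direction, and 3 were higher at an unadjusted p of 0.05 (1.5% over all probe sets) and 0 lower. In 4 of the 19 every CA thermophase array was above every CA cryophase array (4.33% over all probe sets), and in 0 of them were all 18 °C arrays the lowest.

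The 5 with the smallest p in that contrast were all higher in the mean and were all short of the adjusted threshold. Sil1, a nucleotide exchange factor of the Hsp70 of the endoplasmic reticulum, differed by 0.41 between CA thermophase and CA cryophase (standard error 0.15). Hsp110, an exchange factor of cytosolic Hsp70, differed by 0.32 (0.12), and mora, the CHORD protein that binds Hsp90, by 0.23 (0.10). CG1416, listed as Aha1, an activator of the Hsp90 ATPase, differed by 0.54 (0.27), and stv, a BAG-domain partner of Hsp70, by 0.24 (0.17). The limma adjusted p was 0.995 for each of them. Hour 22 of CA was the highest CA array for Sil1, Hsp110, mora and CG1416, as it was for Stip1. The same array had the highest gut deviation (0.93), male reproductive tract deviation (0.92) and eIF-4a 3′ minus 5′ signal (3.23) of the 12, and their part in this was not tested. In AA the 5 ran from -0.26 for stv to 0.17 for CG1416, and the 19 from -0.34 to 0.26. Of the 19, 12 were above 0, against 52.5% of all probe sets, and 0 were called. At an unadjusted p of 0.05 0 were higher (1.86% over all probe sets) and 1 was lower (3.53%), Roe1 at -0.22, named after its value was seen.

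J-domain proteins other than DnaJ-1 were also about evenly split. Of 31 measured, 25 passed the filter, 12 of these were higher in the CA thermophase than in the CA cryophase, against 50.1% of all probe sets, and the median difference was -0.01, with 0 called by limma and 0 at an unadjusted p of 0.05 in either direction. In 0 of the 25 was every CA thermophase array above every CA cryophase array (4.33% over all probe sets), and in 2, CG10375 and CG10565, every one was below (4.61% over all probe sets). Droj2, a cytosolic J-domain protein, differed by 0.24 (standard error 0.12), P58IPK of the endoplasmic reticulum by 0.22 (0.11) and Csp of synaptic vesicles by 0.23 (0.15). CG10375 differed by -0.14 (0.09) and CG10565, listed as zuo1, by -0.12 (0.08), each as CA thermophase minus CA cryophase and each with a limma adjusted p of 0.995. In AA 16 of the 25 were above 0 (52.5% over all probe sets) with a median of 0.03, and 0 were called. At an unadjusted p of 0.05 2 were higher (1.86% over all probe sets) and 1 was lower (3.53%).

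The chaperone families themselves, which include members of the mitochondria and the endoplasmic reticulum, were mixed. The cytosolic Hsp90 and the Hsp70A and Hsp70B genes are not analysed here. Of 12 genes of the Hsp70, Hsp90, Hsp60 and small heat shock families measured, 11 passed the filter, and 8 of these were higher in the CA thermophase than in the CA cryophase, against 50.1% of all probe sets, with a median of 0.13. In AA 4 of the 11 were above 0, against 52.5%, with a median of -0.02. limma called 0 of the 11 on either day, and 3 were higher in CA at an unadjusted p of 0.05 (1.5% over all probe sets). Those 3 were Gp93 at 0.43 (standard error 0.13), the mitochondrial Hsp70 Hsc70-5 at 0.44 (0.18) and Hsc70-3 at 0.19 (0.08), each with a limma adjusted p of 0.995 and with CA groups that did not overlap, as in 4.33% of all probe sets. Hsp60A, the mitochondrial chaperonin, differed by 0.40 (0.21) and Hsc70-2 by 0.13 (0.09), again CA thermophase minus CA cryophase. Hsc70-3 alone of the 11 had all 18 °C arrays below all 25 °C arrays, as the pair and 0.898% of all probe sets did. Its margin was very narrow, since the 18 °C arrays reached 7.732 and the 25 °C arrays began at 7.734.

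**Figure D5:**
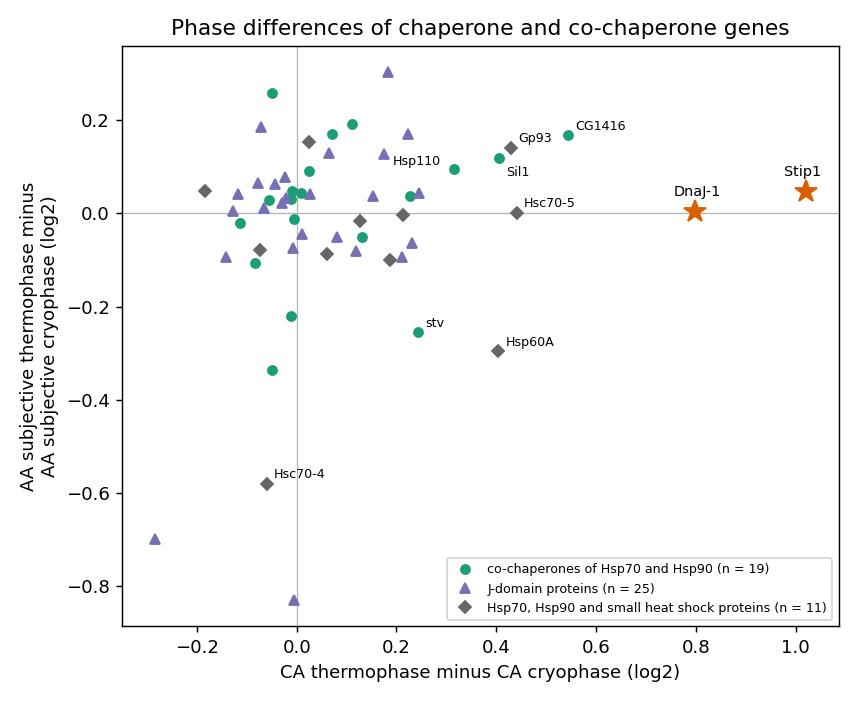
Phase difference in AA (y axis, subjective thermophase minus subjective cryophase) against that in CA (x axis, thermophase minus cryophase), both in log2, for the genes of the 3 chaperone lists that passed the filter, with Stip1 and DnaJ-1 as stars. The stars lie at 1.02 and 0.80 in CA and near 0 in AA, and the list gene farthest to the right, CG1416, lies at 0.54.

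No phase difference in CA was detected for the constitutive Hsp70 Hsc70-4 or the heat shock factor. Hsc70-4, the abundant cytosolic Hsp70, read 10.03, 10.01 and 9.72 in the CA thermophase, against 9.77, 10.22 and 9.95 in the CA cryophase. The groups overlapped, and the difference was -0.06 with a standard error of 0.27. In AA it read 8.41, 9.68 and 9.38 in the subjective thermophase, against 9.38, 10.03 and 9.81 in the subjective cryophase, a difference of -0.58 with a standard error of 0.27 (limma adjusted p = 0.883), and hour 14 was the lowest of its 12 arrays. Hsf, which encodes the factor itself, read 4.21, 4.30 and 4.59 in the CA thermophase, against 4.11, 4.65 and 4.75 in the CA cryophase, a difference of -0.14 with a standard error of 0.16 (limma adjusted p = 0.995). Its groups overlapped, and the AA difference was -0.10 with a standard error of 0.16. These are transcript levels. The activity of the heat shock factor was not measured, and its part in the results of the pair was not tested.

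Measures of RNA integrity and of tissue content differed among the arrays as well. The eIF-4a 3′ minus 5′ signal was 1.55 to 3.23 in the CA thermophase and 2.44 to 2.74 in the CA cryophase, so the CA groups overlapped. Over the 12 arrays it had an r of -0.18 with Stip1 and -0.49 with DnaJ-1. The mean deviation of the gut genes was -0.37 to 0.93 in the CA thermophase and -0.53 to 0.45 in the CA cryophase, with an r of 0.46 with Stip1 and 0.14 with DnaJ-1 over the 12 arrays. In AA it was 0.12 to 0.32 in the subjective thermophase and -0.48 to -0.28 in the subjective cryophase, with no overlap. The CA phase difference of Stip1 was 1.04 with the eIF-4a signal as a covariate and 0.96 with the gut deviation, and that of DnaJ-1 was 0.73 and 0.92. The AA phase difference of Stip1 was 0.01 with the eIF-4a signal and -0.02 with the gut deviation. That of DnaJ-1, near 0 without a covariate, was 0.11 (standard error 0.12) and 0.13 (0.14).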

How the data were processed

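Heads were profiled on 12 arrays, and the labels give the day and hour of each. The authors deposited log2 expression values from RMA (robust multi-array averaging), run per experiment; its version is not given in the sources used here, and the log base was inferred from the values' range. No further normalization was applied. Of 14010 probe sets, 44 controls were left out, and 11137 of 13966 (79.7%) had more than 6 of 12 values above 2.93, the 20th percentile. Symbols came from the platform annotation (12442 single, 327 several, 1197 none), of which 12393 matched the RefSeq table (GCF_000001215.4, names only); that build was not set against the files, so no coordinates are given. limma 3.58.1 in R 4.3.3 fitted 4 group means (8 residual and 4.24 prior degrees of freedom), two-sided, with Benjamini-Hochberg adjustment over all 11137. The script was tested on simulated data. Precision is limited by how few arrays there are. The members and the gene lists were chosen with earlier results of these data known. List genes named are the 5 with the smallest p in the CA phase contrast, of 1 probe set per gene (the brightest), beside Hsc70-4 and Hsf. Some genes of the lists are not analysed here. Alternatives were quantile normalization, median centring, no filter, an intensity trend, array weights, only 1 day's arrays, covariates, hour as a block and leaving out each array.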

Additional observations from a re-analysis of the deposited data

How the results depend on the processing

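Of 489 recomputed values, 463 kept their direction and their side of the threshold, or for counts stayed within 1.5 times. These totals do not measure robustness. Leaving out an array that a comparison does not use cannot change its difference, and list counts of 0 stayed at 0. The count of probe sets called in CA moved in 15 settings and stayed in 5. The CA phase difference kept its sign in every setting, and leaving out 1 array gave 0.87 to 1.11 for Stip1 and 0.74 to 0.89 for DnaJ-1. The AA phase difference, which was near 0, changed sign with array weights (-0.0515 for Stip1, -0.0835 for DnaJ-1) and for Stip1 with the gut covariate (-0.0225), and it ran from -0.061 to 0.119 for Stip1 and from -0.108 to 0.127 for DnaJ-1 when 1 array was left out. It was negative for Stip1 without AA2 (-0.061) or AA18 (-0.0183), and for DnaJ-1 without AA2 (-0.0103), AA6 (-0.108) or AA18 (-0.0747). No setting brought it past the threshold. The relation of the pair in AA had an r of 0.277 to 0.750 when 1 array was left out. The count of probe sets called in CA was 1 and became 0 with median-centred arrays, with only the CA arrays and with the gut covariate, and 0 to 1 when 1 array was left out. It became 82 with array weights (29 higher, 53 lower, both members among them), where hour 14 of CA had a weight of 6.12 and no other array exceeded 1.69. In AA 3 probe sets were called with only the AA arrays, those of Jon99Fii, a gut protease named after its values were seen, and 2 that have no single symbol. With the hour of day as replicate block, 1 probe set was called for the difference between days (CG13315, named after its value was seen). The same model called 15 between AA subjective cryophase and CA cryophase (5 higher, 10 lower, DnaJ-1 among them and Stip1 not). Calls of the members in these settings use CA arrays that brought them forward, and nothing is read from them. The block was run only for the comparisons that use both days, and the AA subjective thermophase against CA thermophase kept a count of 0. With the block, the standard error of the difference between days was 0.11 for DnaJ-1 and 0.18 for Stip1. Arrays of the same hour share a time of day, and in 4 of 6 hours their deviations from the group means correlated above 0.1 (-0.13 to 0.61) and best with their own hour. The cause of these changes was not tested.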
